A study of Mus musculus with 78 samples.

Results

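This group of mRNAs consists of translation elongation factors, the kinase that inhibits one of them, and mRNAs long known to carry a 5′ terminal oligopyrimidine (TOP) motif. Its 10 genes, chosen by name, are Eef1a1, Eef1b2, Eef1d, Eef1g, Eef2, Tpt1, Npm1, Pabpc1, Hnrnpa1 and Eef2k. Of these, 9 had a row with that name among the 14695 genes of the count table, and Eef1d was not analysed here. Primary CD8+ T cells had been taken from C57BL/6J mice, from both spleen and lymph node. All groups shared that strain and source, and all received cycloheximide, which freezes ribosomes on mRNA, at the wash and lysis. For the nutrient comparisons, cells were held for 3 h in medium without arginine, without branched-chain amino acids (BCAA), without glucose, without glutamine or without methionine, and the reference was the medium labelled Control. In the drug experiment cells were treated for 3 h as well, and the reference was the solvent DMSO. The drugs were halofuginone, which inhibits prolyl-tRNA synthetase, and Torin, an inhibitor of the kinase mTOR. The last was 4EGi1, which keeps the cap-binding factor eIF4E from joining eIF4G. Each group held 3 lysates, each with a total RNA library and a library of RNA pooled from gradient fractions 9 to 13, called polysome RNA here.

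A TOP mRNA starts with a cytosine followed by a run of pyrimidines directly at the cap. When mTOR is active such mRNAs are loaded with ribosomes, and when mTOR is inhibited the proteins LARP1 and 4E-BP hold them back from initiation. Most ribosomal proteins and several elongation factors are encoded by mRNAs of this class. Eef1a1 encodes eEF1A, which delivers aminoacyl-tRNA to the ribosome, Eef1b2 and Eef1g encode subunits of the complex that recharges eEF1A with GTP, and Eef2 encodes the translocase eEF2. Eef2k encodes the kinase that phosphorylates and inhibits eEF2.

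RefSeq transcript starts of build GRCm38.p6 were used to look for pyrimidine runs, because such a run at the cap is what names the class. Windows from 250 bases before to 50 after an annotated start were at hand for 6 of the 9 measured genes, and Eef1g, Npm1 and Pabpc1 had none. The search was for a C followed by at least 4 bases that are each C or T, on the transcribed strand, from 10 bases before to 50 after the start, and adjoining matches were merged into 1 run. Capitals mark the longest run in 30 bases for the pair of factors whose polysome over total ratio rose in several deprivations (Eef1a1 and Eef2) and the pair whose ratio fell (Eef1b2 and Tpt1).
Eef1a1: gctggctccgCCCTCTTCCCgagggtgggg
Eef2: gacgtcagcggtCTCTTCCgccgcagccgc
Eef1b2: ttgcgtccgagcgCTTTCgttcaactccgg
Tpt1: cggtgacgtagccgagcgtgCCCTCTatat
The stretches are chr9:78481710-78481739 on the minus strand and, on the plus strand, chr10:81176634-81176663, chr1:63176850-63176879 and chr14:75845276-75845305, all at the 5′ end of the gene. The run had 10 bases in Eef1a1, starting 5 bases before the annotated start, 7 bases in Eef2 from base 16, 5 bases in Eef1b2 from base 33 and 6 bases in Tpt1 from base 41. Hnrnpa1 had no match in this interval. Of the 3 Eef2k windows 2 had one, with 5 bases from base 26 and with 8 bases from base 24, longer than the run of Eef2. A run of this kind was in 57.1% of all 32851 windows and one of at least 7 bases in 24.2%. TATAA, the core of the TATA box promoter motif, began 25 bases after the annotated start in the Eef1a1 window, past its marked run. In the Eef2 window it began 15 bases before the start, ahead of the run, and the Eef1b2 and Tpt1 windows held none. TATAA was somewhere in 17.5% of all windows. Which start these T cells use was not measured, so whether a marked run lies in the mRNA was not tested.

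Levels are given as CPM, a library's counts scaled to a common total after TMM normalization. For the cell type markers below, CPM was scaled to the library's total counts without TMM. Total counts per library lay between 29917770 and 54272886 (nutrient, polysome RNA), 15144663 and 30637485 (nutrient, total RNA), 17846266 and 24929556 (drug, polysome RNA) and 17506526 and 23099949 (drug, total RNA). The 9 genes together took 1.51 to 2.39% of the counts of nutrient polysome libraries and 3.19 to 4.20% of total RNA libraries. In the drug experiment they took 1.60 to 2.04% in polysome and 2.92 to 3.62% in total RNA libraries. All 5 CD8 T cell markers (Cd3e, Cd8a, Cd8b1, Gzmb, Prf1) were measured and summed to between 5017 and 19650 CPM in every library. Of 3 CD4 T cell markers only Zbtb7b was measured, at 5.49 to 24.9 CPM, and of 4 B cell markers Cd79a and Cd79b, at 1.66 to 19.1 CPM together. None of the 4 myeloid, 2 NK cell and 3 erythroid markers had a row among the genes analysed. In these bulk libraries, fewer cells of a type and less RNA per cell cannot be told apart.

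In Control cells most of these mRNAs had a smaller share of polysome RNA than of total RNA. The polysome over total ratio of a lysate is its polysome CPM over its total RNA CPM, with both kinds of library of an experiment scaled together. Levels in CPM are from each fraction scaled on its own, so dividing printed levels does not return the printed ratios exactly. In Control medium the ratio of Tpt1, a small and abundant mRNA that encodes the protein TCTP, was 0.235, 0.251 and 0.221 in the 3 lysates. That of Eef1a1 was 0.380, 0.355 and 0.336, and that of Eef2 was 0.428, 0.441 and 0.486. Tpt1 thus had the lowest ratios of the 9 genes, and its range did not overlap that of any other. Npm1, which encodes the nucleolar chaperone nucleophosmin, stood near 1 at 0.912, 0.988 and 0.871, and Hnrnpa1, which encodes an RNA-binding splicing factor, at 0.923, 0.908 and 0.826. Eef2k stood apart above 1, at 1.42, 1.36 and 1.46.

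By edgeR's quasi-likelihood test of polysome against total RNA, 8 of the 9 mRNAs differed in Control at an adjusted p under 0.05, against 65.7% of all genes tested. The 7 lower ones ran from Tpt1, at a log2 ratio of -2.08 ± 0.10 (adjusted p = 1.48e-18), to Hnrnpa1 at -0.18 ± 0.05 (adjusted p = 0.00367), and Eef2k was higher, at 0.50 ± 0.09 (adjusted p = 2.38e-05). Npm1 missed the threshold at -0.12 ± 0.07 (adjusted p = 0.138) and passed it with DESeq2 (-0.20, adjusted p = 0.00909), and Hnrnpa1 lost its call without Control replicate 3 (-0.13, adjusted p = 0.101). In DMSO, 7 of 9 differed, against 59.3% of all genes. There Eef1a1 (-0.89 ± 0.10, adjusted p = 2.14e-08), Eef2 (-0.41 ± 0.11, adjusted p = 0.00175), Tpt1 (-1.16 ± 0.14, adjusted p = 7.69e-08) and Pabpc1 (-1.17 ± 0.16, adjusted p = 4.47e-07) were lower on polysomes. Npm1 (0.44 ± 0.11, adjusted p = 9.20e-04), Hnrnpa1 (0.77 ± 0.10, adjusted p = 3.91e-07) and Eef2k (0.55 ± 0.16, adjusted p = 0.00416) were higher. The call of Eef2 in DMSO was lost without DMSO replicate 1 (-0.30, adjusted p = 0.0569). Per the labels, polyA RNA was sequenced after drug treatment but total RNA after nutrient removal, so the ratios of both experiments stand side by side without a test.

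In several deprivations some mRNAs of the group rose in polysome over total ratio while others fell. Without methionine the polysome over total ratio of Eef1a1 was 0.724, 0.739 and 0.680, against 0.380, 0.355 and 0.336 in Control. The ratio of Eef2 was 0.80, 0.920 and 0.884 without methionine, against 0.428, 0.441 and 0.486 in Control. For these mRNAs and for Eef1g, every lysate without methionine lay above every Control lysate. Over the same lysates the ratio of Eef1b2 was 0.371, 0.310 and 0.354 without methionine, against 0.561, 0.575 and 0.528 in Control, with every deprived lysate below. Eef1b2 and Eef1g encode subunits of 1 protein complex, yet the ratio of Eef1g was 0.909, 0.914 and 0.890 without methionine, against 0.530, 0.511 and 0.508 in Control.

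**Figure D1:**
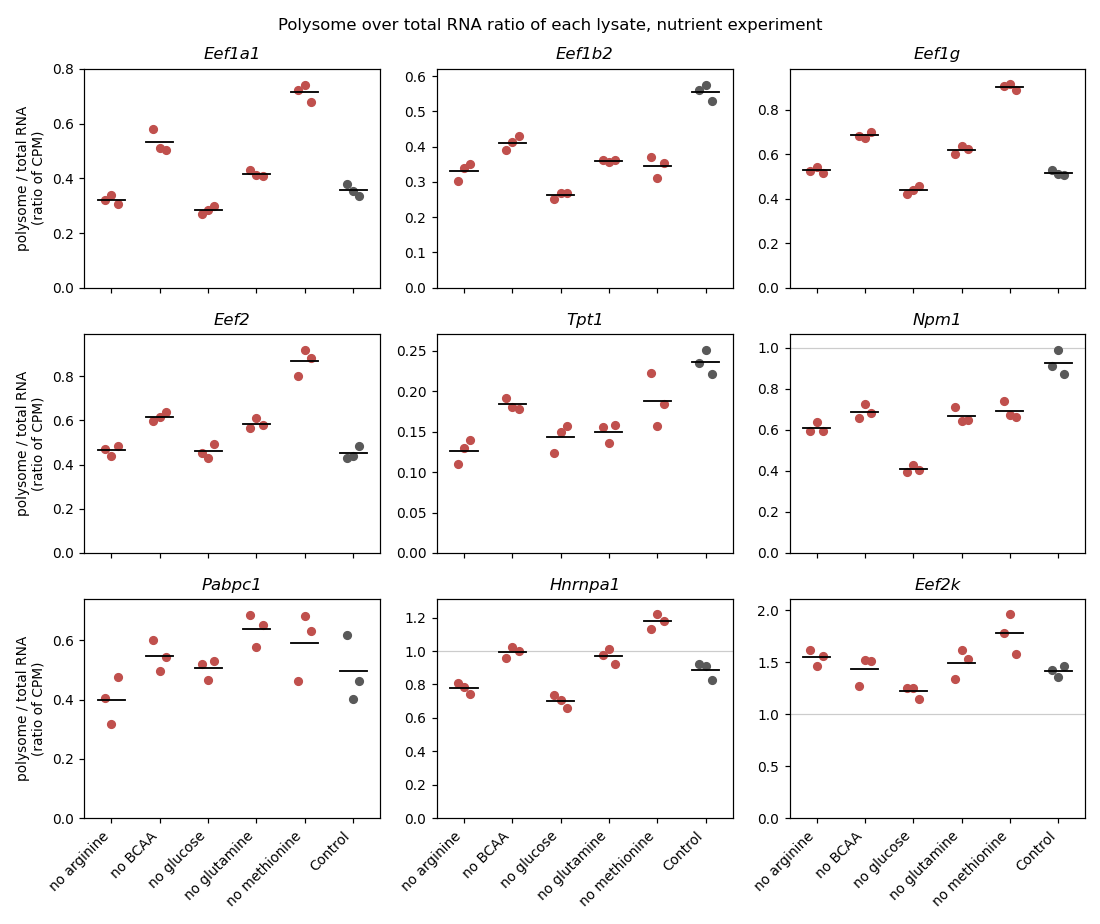
Polysome over total RNA ratio (ratio of CPM, linear axes from 0) of the 9 measured genes in each of the 3 lysates per group of the nutrient experiment; dots are lysates, red for deprivations and grey for Control, and black lines are means. Eef1a1, Eef1g and Eef2 reach their highest ratios without methionine, between 0.680 and 0.920, while all deprived lysates lie below Control for Eef1b2 and Npm1.

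Translational efficiency (TE) is the change of this ratio against the control, tested as the interaction of fraction and condition. Over the 45 tests of 9 genes in 5 deprivations, 28 passed, 10 higher and 18 lower, and the split was 13 higher and 15 lower when libraries were scaled by RLE size factors. Without methionine 4 of 9 genes rose and 3 fell, against 49.1% of all genes called. Eef1a1 changed by 1.00 ± 0.08 (adjusted p = 5.45e-11) on the log2 scale, Eef2 by 0.94 ± 0.10 (adjusted p = 2.87e-09) and Eef1g by 0.81 ± 0.07 (adjusted p = 8.49e-11). Eef1a1, Eef2 and Eef1g thus came close to a doubling, whereas the median of all genes stood at -0.14 (-0.06 with RLE size factors). Hnrnpa1 rose by 0.41 ± 0.07 (adjusted p = 2.19e-05), with ratios of 1.13, 1.22 and 1.18 without methionine, against 0.923, 0.908 and 0.826 in Control. Eef1b2 fell, at -0.70 ± 0.11 (adjusted p = 5.73e-06), as did Npm1, at -0.42 ± 0.10 (adjusted p = 5.47e-04). Tpt1 fell at -0.36 ± 0.13 (adjusted p = 0.0260), with 1 deprived lysate inside the Control range, and lost its call with RLE size factors (-0.28, adjusted p = 0.0894) or without Control replicate 2, NoMethionine replicate 2 or NoMethionine replicate 3 (adjusted p = 0.0588 to 0.18).

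Without BCAA Eef1a1, Eef1g and Eef2 rose and Eef1b2, Npm1 and Tpt1 fell. These are 3 higher and 3 lower of the 9 genes, against 26.9% of all genes called. Eef1a1 had ratios of 0.580, 0.512 and 0.502 without BCAA, against 0.380, 0.355 and 0.336 in Control, a change of 0.57 ± 0.08 (adjusted p = 7.00e-06). Eef2 (0.45 ± 0.10, adjusted p = 8.17e-04) and Eef1g (0.41 ± 0.07, adjusted p = 5.00e-05) were the other mRNAs that rose. Hnrnpa1 did not pass, but it was called higher with RLE size factors (0.23, adjusted p = 0.0277) and with DESeq2 (0.23, adjusted p = 0.00505). Eef1b2 fell at -0.43 ± 0.11 (adjusted p = 0.00504) and Npm1 at -0.42 ± 0.10 (adjusted p = 0.00168). Tpt1 stood at -0.36 ± 0.13 (adjusted p = 0.0426), a call lost with RLE size factors (adjusted p = 0.114) and without any 1 of 9 lysates, 3 each of NoBCAA and Control and 1 each of NoArginine, NoGlucose and NoGlutamine (adjusted p = 0.0509 to 0.152).

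Without glutamine, 3 genes rose and 3 fell, against 35.2% of all genes called. The ratio of Eef2 was 0.567, 0.609 and 0.578 without glutamine, against 0.428, 0.441 and 0.486 in Control, a change of 0.37 ± 0.10 (adjusted p = 0.00274). Eef1g rose by 0.27 ± 0.07 (adjusted p = 0.00223) and Eef1a1 by 0.22 ± 0.08 (adjusted p = 0.0288). Hnrnpa1 did not pass, but it was called higher with RLE size factors (0.26, adjusted p = 0.00834) and with DESeq2 (0.26, adjusted p = 0.000751). Eef1b2 (-0.62 ± 0.11, adjusted p = 7.34e-05), Tpt1 (-0.66 ± 0.13, adjusted p = 2.49e-04) and Npm1 (-0.47 ± 0.10, adjusted p = 3.16e-04) fell. Pabpc1, which encodes the cytoplasmic poly(A)-binding protein, stood at 0.36 ± 0.22 (adjusted p = 0.205) and passed with the lysate as a block (0.39, adjusted p = 0.038). The call of Eef1a1 was lost without any 1 of Control replicates 2 and 3 and NoGlutamine replicates 1, 2 and 3 (0.18 to 0.24, adjusted p = 0.0539 to 0.147). RLE size factors moved the median TE change of all genes without glutamine to -0.02, against -0.15 with TMM. The other deprivations moved too, to 0.01 from -0.08 without glucose, to -0.06 from -0.14 without methionine and to -0.06 from -0.12 without BCAA. Without arginine it was -0.03, against -0.04 with TMM.

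Without glucose no member rose and 6 fell, against 25.8% of all genes called. Npm1 fell furthest, with ratios of 0.393, 0.427 and 0.405 without glucose, against 0.912, 0.988 and 0.871 in Control, a change of -1.18 ± 0.10 (adjusted p = 5.47e-10). The ratio of Eef1b2 was 0.252, 0.269 and 0.268 without glucose, against 0.561, 0.575 and 0.528 in Control, a change of -1.07 ± 0.11 (adjusted p = 2.84e-08). Tpt1 fell at -0.71 ± 0.13 (adjusted p = 1.56e-04), Hnrnpa1 at -0.34 ± 0.07 (adjusted p = 9.10e-04) and Eef1a1 at -0.32 ± 0.08 (adjusted p = 0.00325). Eef2 did not pass, with ratios of 0.454, 0.431 and 0.495 without glucose, against 0.428, 0.441 and 0.486 in Control (0.03 ± 0.10, adjusted p = 0.865). Eef1g stood at -0.23 ± 0.07 (adjusted p = 0.00970), a call lost with RLE size factors (-0.15, adjusted p = 0.119) and without NoGlucose replicate 1 (-0.20, adjusted p = 0.0617).

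Without arginine, 3 genes fell and none rose, against 16.5% of all genes called. The ratio of Tpt1 was 0.111, 0.130 and 0.139 without arginine, against 0.235, 0.251 and 0.221 in Control, a change of -0.90 ± 0.13 (adjusted p = 9.67e-05). Eef1b2 fell at -0.74 ± 0.11 (adjusted p = 1.00e-04) and Npm1 at -0.60 ± 0.10 (adjusted p = 1.80e-04). Eef1a1 (-0.15 ± 0.08, adjusted p = 0.202), Eef1g (0.04 ± 0.07, adjusted p = 0.770) and Eef2 (0.04 ± 0.10, adjusted p = 0.817) did not pass. Hnrnpa1 did not pass either, at 0.809, 0.785 and 0.746 without arginine, against 0.923, 0.908 and 0.826 in Control. DESeq2 called it lower (-0.18, adjusted p = 0.0454). Eef1b2 and Npm1 therefore passed as lower in 5 of 5 deprivations, in each with every deprived lysate below every Control lysate, and Tpt1 passed as lower in 5 of 5 with the exceptions given. Libraries from the 5 deprivations share the same 3 Control lysates.

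**Figure D2:**
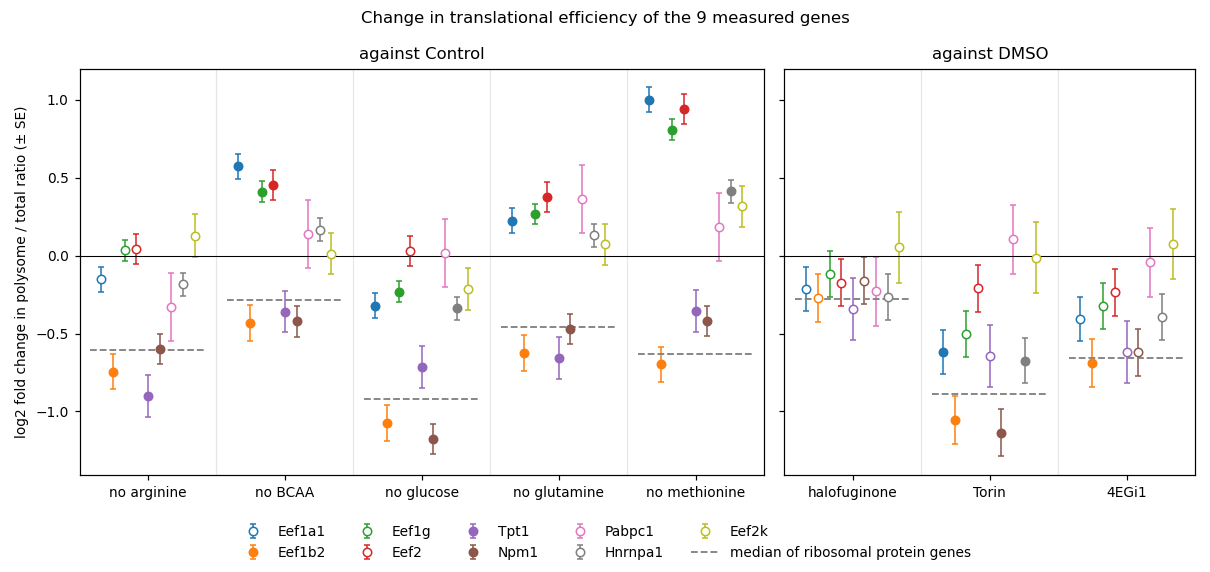
Log2 fold change (± SE) in the polysome over total ratio of each gene, for deprivations against Control (left) and drugs against DMSO (right); filled symbols have an adjusted p under 0.05, and dashed lines are the median over ribosomal protein genes. Eef1a1, Eef1g and Eef2 lie between 0.81 and 1.00 without methionine while Eef1b2 lies at -0.70.

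The TE change of Eef2k was between -0.21 and 0.32 in the 5 deprivations and passed in none of them. The largest, without methionine, was 0.32 ± 0.13 (adjusted p = 0.0509), with ratios of 1.78, 1.97 and 1.58 without methionine, against 1.42, 1.36 and 1.46 in Control. It passed with the lysate as a block (0.32, adjusted p = 0.0154), RLE size factors (0.39, adjusted p = 0.017) and DESeq2 (0.39, adjusted p = 0.0138). It also passed in the fit with Control alone (0.43, adjusted p = 0.029) and in 3 of 18 fits without 1 lysate. The Eef2k mRNA was of low level, at 25.6, 21.0 and 23.5 CPM in polysome RNA of Control. In polysome RNA it rose in 4 of 5 deprivations (without glucose not when Control replicate 2 or NoGlucose replicate 1 was left out, adjusted p = 0.079 and 0.0944), with 33.1, 34.3 and 31.1 CPM without glutamine, a change of 0.49 ± 0.09 (adjusted p = 1.19e-04). Pabpc1 varied between lysates, with polysome levels of 463, 276 and 315 CPM in Control, and 0 of its 5 TE changes passed. Without Control replicate 1 its TE rose without glutamine (0.56, adjusted p = 0.0484). Its polysome level then rose without BCAA (0.38, adjusted p = 0.0171), glucose (0.51, adjusted p = 0.00198) and methionine (0.43, adjusted p = 0.00528). In each of these comparisons only that 1 of 18 omissions gave a call.

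The order of the deprivations was tested for each gene between pairs of deprivations. Over 90 tests of 9 genes in 10 pairs, 46 passed. For Eef1a1 the ratio was highest without methionine and then without BCAA (-0.43 ± 0.08, adjusted p = 4.34e-04, BCAA against methionine). Glutamine removal came next, below BCAA removal (0.35 ± 0.08, adjusted p = 0.0403, BCAA against glutamine) and above arginine removal (-0.38 ± 0.08, adjusted p = 0.00255, arginine against glutamine). Between the lowest neighbours, every lysate without arginine (0.321, 0.339 and 0.304) lay above every lysate without glucose (0.271, 0.284 and 0.300), and the difference missed the adjusted threshold (0.17 ± 0.08, adjusted p = 0.236, arginine against glucose). For Eef2 the top place of methionine removal also passed (-0.49 ± 0.10, adjusted p = 6.03e-04, BCAA against methionine), and no difference passed between BCAA and glutamine removal (0.08 ± 0.10, adjusted p = 0.945). For Npm1, glucose removal was lowest (0.58 ± 0.10, adjusted p = 4.74e-04, arginine against glucose), and the other deprivations did not pass against one another.

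By pair, 5 of 9 genes differed between arginine and methionine removal (23.8% of all genes), 8 between glucose and methionine removal (29.1%), 4 between BCAA and methionine removal (14.8%) and 4 between glutamine and methionine removal (16.8%). There were 5 between arginine and BCAA removal (2.29%), 2 between arginine and glucose removal (5.29%) and 5 between arginine and glutamine removal (9.03%). Between BCAA and glucose removal 6 passed (3.57%), between BCAA and glutamine removal 1, Eef1a1 (0.467%), and between glucose and glutamine removal 6 (5.91%).

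Polysome and total RNA were also tested on their own. Without methionine Eef1a1 had 11404, 11710.2 and 11820.3 CPM in polysome RNA, against 6666, 6124 and 6049 CPM in Control. In total RNA it had 15019, 15249.7 and 16569.7 CPM without methionine, against 17499.7, 17883 and 18381 CPM in Control. The polysome level was thus higher in all 3 lysates, by 0.89 ± 0.06 (adjusted p = 5.30e-10) on the log2 scale, and the total level was lower in all 3, with a log2 change of -0.20 ± 0.06 (adjusted p = 0.0139). Eef2 had 5739.6, 6113 and 7044 CPM in polysome RNA without methionine, against 3292, 3148 and 3405 CPM in Control. Its total RNA levels overlapped (-0.09 ± 0.07, adjusted p = 0.321).

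In polysome RNA 33 of 45 tests passed in the 5 deprivations, 19 higher and 14 lower. Against Control, 4 of 9 genes passed without arginine (40.5% of all genes), 7 without BCAA (56.1%), 5 without glucose (59.0%), 9 without glutamine (64.5%) and 8 without methionine (69.0%). Eef2 rose in all 5, from 0.22 ± 0.07 without arginine (adjusted p = 0.0144; 0.20 and 0.0574 without NoArginine replicate 1) to 0.94 ± 0.07 without methionine. Npm1 fell in all 5, furthest without glucose, with 1459, 1629 and 1509 CPM, against 2899.7, 3082 and 2929 CPM in Control (-0.95 ± 0.06, adjusted p = 2.80e-10). Eef1b2 fell in all 5 as well, between -0.84 ± 0.07 without glucose and -0.29 ± 0.07 without BCAA. Tpt1 fell in 4 of 5, and its call without methionine (-0.21 ± 0.09, adjusted p = 0.0425) was lost without any of 6 single libraries, with adjusted p up to 0.155. Pabpc1 rose without glutamine (0.43 ± 0.15, adjusted p = 0.0166), where the groups overlapped and the call was lost without Control replicate 2, Control replicate 3 or NoGlutamine replicate 1.

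In total RNA 11 of 45 tests passed, 8 higher and 3 lower. Against Control, 1 of 9 genes passed without arginine (9.24% of all genes), 0 without BCAA (30.1%; 0 at an unadjusted p under 0.05 and 1 with DESeq2), 4 without glucose (40.8%), 3 without glutamine (39.0%) and 3 without methionine (35.2%). Without glucose all 9 estimates were above 0, and Eef2k (0.42 ± 0.10, adjusted p = 0.00206), Eef2 (0.39 ± 0.07, adjusted p = 1.22e-04), Hnrnpa1 (0.30 ± 0.05, adjusted p = 1.53e-04) and Eef1a1 (0.26 ± 0.06, adjusted p = 0.00201) rose. Hnrnpa1 also rose without arginine (0.24 ± 0.05, adjusted p = 0.00799). Without glutamine Eef2 (0.19 ± 0.07), Eef2k (0.28 ± 0.10) and Hnrnpa1 (0.16 ± 0.05) passed with adjusted p of 0.0250 to 0.0320. The count there was 0 without Control replicate 2 or NoGlutamine replicate 1, and 1 without Control replicate 3 or NoGlutamine replicate 3. Without methionine Eef1a1, Eef1g (-0.22 ± 0.05) and Npm1 (-0.19 ± 0.07) fell, and 1 call was left without Control replicate 3. Npm1 lost its call without any 1 of 11 single libraries (adjusted p up to 0.166). All 3 were lost when the libraries without methionine and Control were fitted alone (adjusted p = 0.068 to 0.144). Pabpc1 in total RNA without methionine was 963, 507 and 559.7 CPM, with replicate 1 far above the others, and it passed as lower when that library was left out (-0.44, adjusted p = 3.9e-05).

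**Figure D3:**
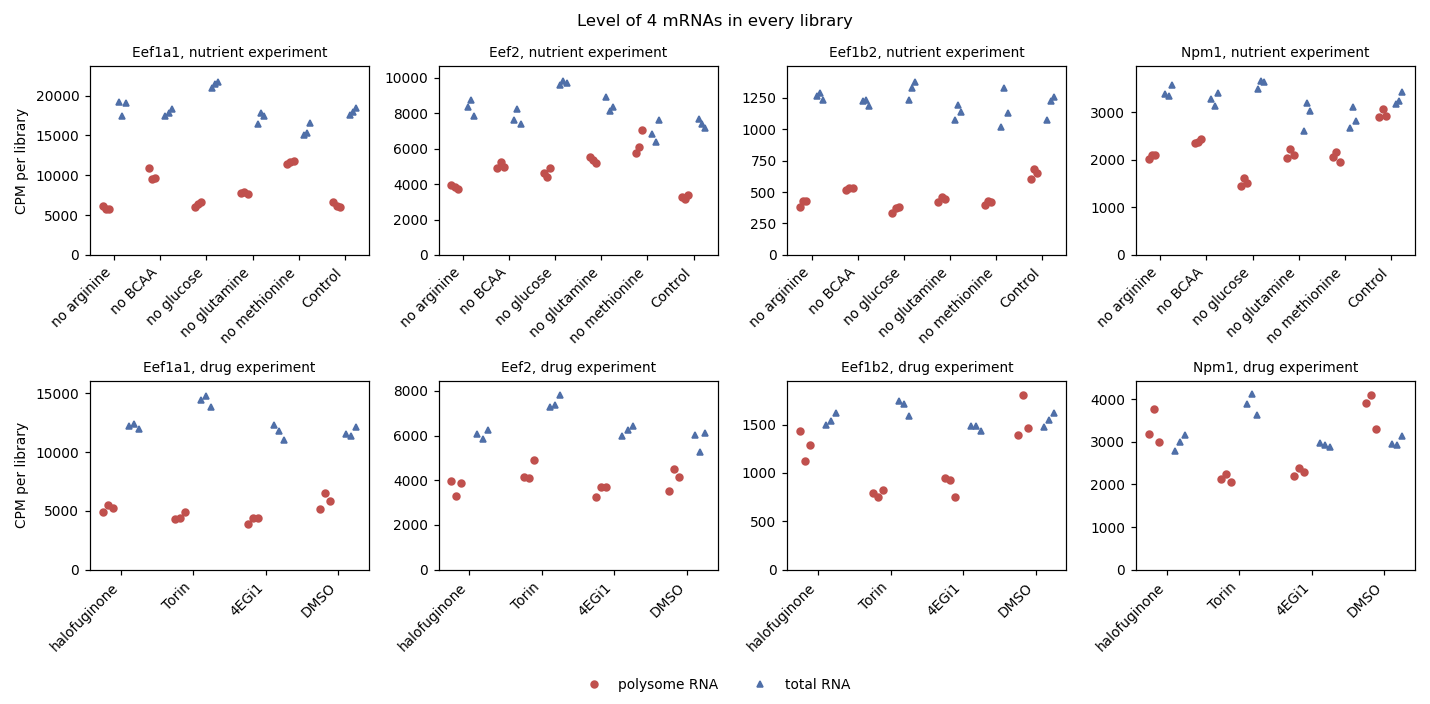
CPM of Eef1a1, Eef2, Eef1b2 and Npm1 in every library (linear axes from 0), circles for polysome RNA and triangles for total RNA, with Control or DMSO at the right of each panel. The polysome level of Eef1a1 lies between 11404 and 11820.3 CPM without methionine and between 6049 and 6666 CPM in Control, and total RNA lies between 15019 and 16569.7 CPM and between 17499.7 and 18381 CPM in the same groups.

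In the drug experiment none of these mRNAs rose in polysome over total ratio. TE passed in 5 of 27 tests, all lower. With Torin 4 of 9 genes fell, against 1.79% of all genes called. The ratio of Npm1 was 0.610, 0.609 and 0.633 with Torin, against 1.45, 1.51 and 1.12 in DMSO, a change of -1.14 ± 0.15 (adjusted p = 8.31e-05). The ratio of Eef1b2 was 0.506, 0.487 and 0.580 with Torin, against 1.03, 1.26 and 0.966 in DMSO, a change of -1.05 ± 0.16 (adjusted p = 1.77e-04). Every Torin lysate lay below every DMSO lysate for both. Hnrnpa1 (-0.67 ± 0.15, adjusted p = 0.0113) and Eef1a1 (-0.62 ± 0.14, adjusted p = 0.0175) fell too. Eef1a1 lost its call without both lysates whose polysome library name carries an R, Torin replicate 3 and 4EGi1 replicate 2 (-0.57, adjusted p = 0.114), and also without DMSO replicate 3, Torin replicate 1 or Torin replicate 3 (0.117 to 0.146). Hnrnpa1 lost its call without DMSO replicate 1, DMSO replicate 3, Torin replicate 1 or Torin replicate 4 (adjusted p = 0.056 to 0.104). Tpt1 stood at -0.64 ± 0.20 (adjusted p = 0.115) and passed with the lysate as a block (-0.62, adjusted p = 0.0427). The ratio of Eef1g was 0.678, 0.647 and 0.726 with Torin, against 0.878, 1.22 and 0.818 in DMSO, with every Torin lysate below. Its change of -0.50 did not pass, but DESeq2 called it (-0.54, adjusted p = 0.00506), as did 1 of 12 fits without 1 lysate (adjusted p = 0.0478). Eef2 (-0.21 ± 0.15, adjusted p = 0.582) and Pabpc1 (0.11 ± 0.22, adjusted p = 0.875) overlapped DMSO.

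With 4EGi1, 1 of 9 genes fell, against 0.565% of all genes called. It was Eef1b2, with ratios of 0.722, 0.705 and 0.589 with 4EGi1, against 1.03, 1.26 and 0.966 in DMSO (-0.69 ± 0.16, adjusted p = 0.0386). That call was lost without any 1 of 9 single lysates, 3 each of 4EGi1 and Torin, 2 of DMSO and 1 of halofuginone, with adjusted p up to 0.227. With the lysate as a block 3 genes passed, Eef1b2 together with Npm1 (-0.61, adjusted p = 0.0243) and Tpt1 (-0.60, adjusted p = 0.0361). An unadjusted p under 0.05 was reached by 6 of 9. DESeq2 called 5 of 9, those 3 with Eef1a1 (-0.46, adjusted p = 0.00819) and Hnrnpa1 (-0.45, adjusted p = 0.0307), among 375 genes it called in all. With halofuginone 0 of 9 genes passed, at 0 of 9 with an unadjusted p under 0.05 and 0 with DESeq2, against 0% of all genes. There the TE changes ran from -0.34 ± 0.20 for Tpt1 to 0.05 ± 0.23 for Eef2k.

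**Figure D4:**
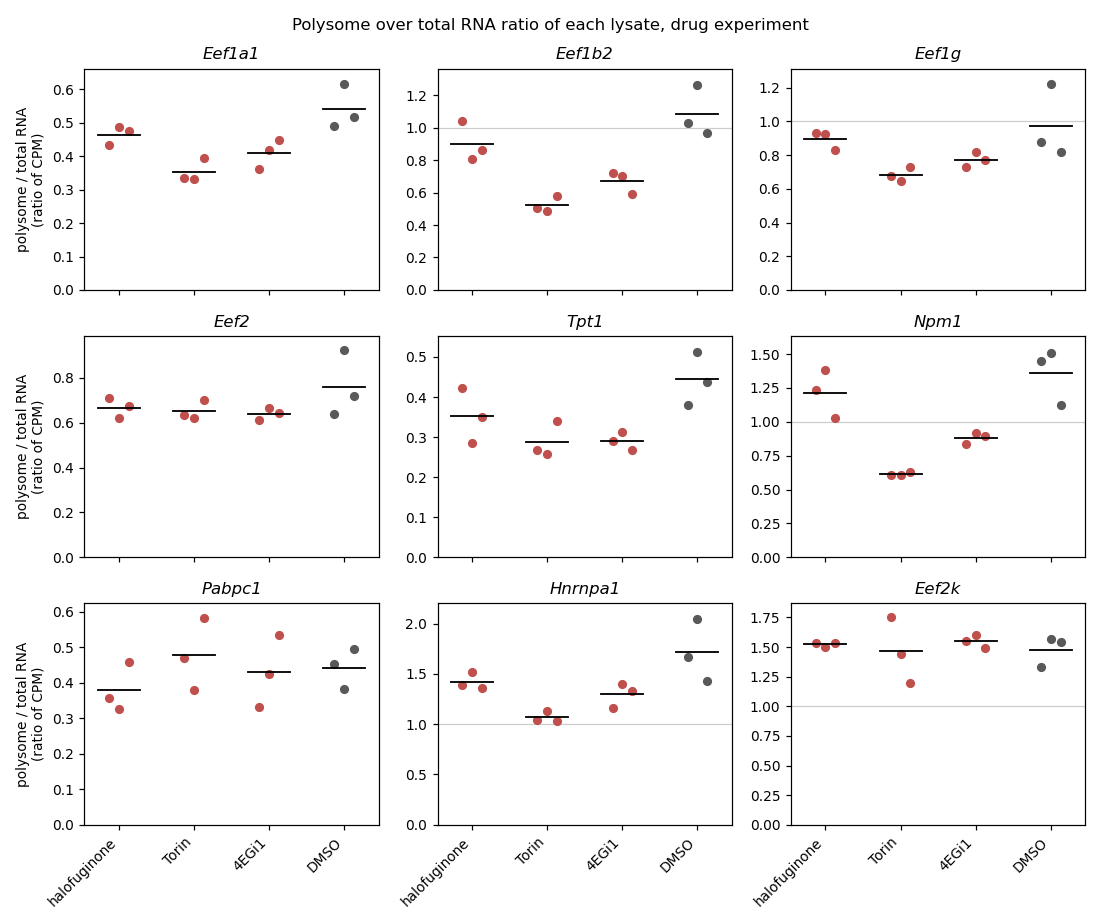
Polysome over total RNA ratio (ratio of CPM, linear axes from 0) of the 9 measured genes in each of the 3 lysates per group of the drug experiment; dots are lysates, red for drugs and grey for DMSO, and black lines are means. Npm1 lies between 0.609 and 0.633 with Torin and between 1.12 and 1.51 in DMSO, and DMSO replicate 3 is the highest DMSO lysate for 8 of the 9 genes.

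Between drugs, 2 of 27 TE tests passed, both higher with halofuginone than with Torin (0.549% of all genes), for Npm1 (0.98 ± 0.15, adjusted p = 0.00109) and Eef1b2 (0.78 ± 0.16, adjusted p = 0.0117). None of the 9 passed between Torin and 4EGi1 (0.275% of all genes) or between halofuginone and 4EGi1 (0.0706%), with estimates from -0.52 to 0.15 and from -0.19 to 0.46.

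In polysome RNA 8 of 27 drug tests passed, all lower. With 4EGi1 5 of 9 genes fell (28.6% of all genes called), Eef1b2 (-0.82 ± 0.14, adjusted p = 6.03e-04), Npm1 (-0.72 ± 0.13, adjusted p = 0.00101), Tpt1 (-0.69 ± 0.17, adjusted p = 0.00704), Eef1g (-0.48 ± 0.14, adjusted p = 0.0158) and Eef1a1 (-0.46 ± 0.13, adjusted p = 0.0147). Of these, 3 were left without DMSO replicate 3, as Eef1a1 (adjusted p = 0.0744) and Eef1g (0.125) no longer passed, nor did they without both lysates with an R (0.0581 and 0.0691). With Torin 3 fell (16.8% of all genes called). Npm1 had 2129.7, 2248 and 2049 CPM in polysome RNA with Torin, against 3915, 4099.9 and 3295 CPM in DMSO (-0.82 ± 0.13, adjusted p = 5.19e-04). Eef1b2 fell at -0.98 ± 0.14 (adjusted p = 2.14e-04), and Eef1g at -0.41 ± 0.14 (adjusted p = 0.0493), a call lost in 10 of 12 fits without 1 library and with RLE size factors (adjusted p = 0.0637). With halofuginone 0 of 9 passed, at 0 with an unadjusted p under 0.05 and 0 with DESeq2, against 0.0491% of all genes.

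In total RNA with Torin 5 of 9 genes rose (26.7% of all genes called), and none fell. Npm1 had 3884, 4118 and 3624 CPM in total RNA with Torin, against 2956, 2930.4 and 3131 CPM in DMSO (0.37 ± 0.07, adjusted p = 6.58e-04). Eef2 (0.37 ± 0.07, adjusted p = 7.59e-04), Hnrnpa1 (0.36 ± 0.06, adjusted p = 2.41e-04) and Eef1a1 (0.30 ± 0.06, adjusted p = 0.00202) rose with no overlap, as did Tpt1 (0.24 ± 0.08, adjusted p = 0.0360), whose call was lost without any of 6 single libraries (adjusted p up to 0.172). With 4EGi1 only Hnrnpa1 passed (0.18 ± 0.06, adjusted p = 0.0306; 26.4% of all genes called), and its call was lost without any of 7 single libraries. With halofuginone 0 of 9 passed (0.279% of all genes; 0 with an unadjusted p under 0.05 and 0 with DESeq2).

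**Figure D5:**
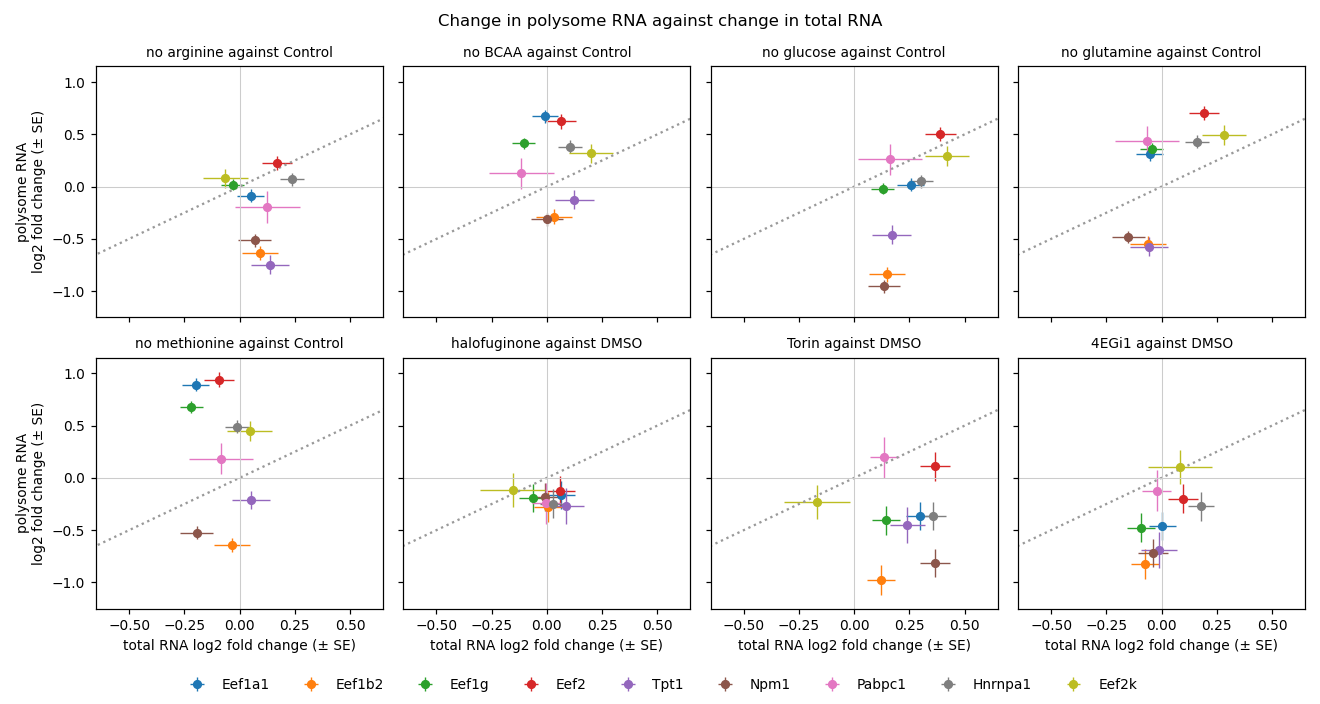
Log2 fold change of polysome RNA (vertical) against that of total RNA (horizontal), both ± SE, for the 9 genes in each comparison; the dotted line marks equal change. Without methionine Eef1a1, Eef1g and Eef2 lie far above the line and Eef1b2 and Npm1 below it, and with Torin Eef1a1, Eef1b2, Npm1 and Hnrnpa1 lie below it.

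Profiles over the 12 nutrient groups (mean log2 CPM of each group, both fractions) were used to find the genes most like Eef1a1, Eef2 and Eef2k by Pearson correlation. These correlations describe groups that share libraries and a difference between fractions. The 5 most like Eef1a1 were Gm6789, Mir703, Eef1g, Gm13456 and Eef1a1-ps1, with r of 0.988 to 0.994 over the 12 nutrient groups and 0.463 to 0.970 over the 8 drug groups. For Eef2 they were Eef2-ps2, Qars1, Eif2a, Gm6789 and Eef1g (0.962 to 0.981, and 0.518 to 0.938). For Eef2k they were Timm44, Apobec3, Med19, Capn1 and Mrps27 (0.975 to 0.983, and 0.322 to 0.925). RefSeq lists Gm6789, Gm13456, Eef1a1-ps1 and Eef2-ps2 as pseudogenes, so reads of Eef1a1 and Eef2 can be split between near-identical copies and their levels are uncertain to that extent.

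Other mRNAs of the same machinery give the setting. In TE, 16.5%, 26.9%, 25.8%, 35.2% and 49.1% of all genes were called, higher or lower, on removal of arginine, BCAA, glucose, glutamine and methionine. Of 79 ribosomal protein genes, which are the main TOP class, TE fell for 69 without arginine (median log2 change -0.61), 29 without BCAA (-0.29), 70 without glucose (-0.92), 57 without glutamine (-0.46) and 60 without methionine (-0.63). It rose for 0, 1, 0, 0 and 2 of them in that order, and the highest without methionine was Rpl3 (0.59 ± 0.07, adjusted p = 1.14e-08). With Torin 57 of 78 fell (-0.89), with 4EGi1 14 (-0.66) and with halofuginone 0 (-0.28), against 1.79%, 0.565% and 0% of all genes called. The medians of all genes were -0.04, -0.12, -0.08, -0.15 and -0.14 in the deprivations and 0.08, 0.06 and 0.03 with Torin, 4EGi1 and halofuginone. Eef1b2, Npm1 and Tpt1 thus moved in the direction of the ribosomal protein median in every deprivation, and Eef1a1, Eef1g and Eef2 moved against it without methionine, BCAA and glutamine.

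A list of 14 further mRNAs described as TOP also held both directions. Without methionine 5 rose and 4 fell, against 49.1% of all genes called in either direction. The changes ran from Vim (0.87 ± 0.10, adjusted p = 4.55e-08), an intermediate filament gene, to Btf3 (-1.14 ± 0.10, adjusted p = 1.66e-10), a subunit of the nascent polypeptide-associated complex. Without BCAA 4 rose and 2 fell (26.9% of all genes called), and without glutamine 2 rose and 4 fell (35.2%). Without glucose 8 fell and 0 rose (median -0.55), without arginine 7 fell and 0 rose (-0.28), and with Torin 9 fell and 0 rose (-0.60). Of all genes, 25.8%, 16.5% and 1.79% were called there. With 4EGi1 and with halofuginone 0 passed, at medians of -0.37 and -0.08 (0.565% and 0% of all genes called).

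Other elongation factors, 9 of 10 measured, showed the mitochondrial factors Gfm1 and Gfm2 at the top. TE rose for 2, 1, 1, 2 and 2 of the 9 and fell for 2, 2, 5, 3 and 4 on removal of arginine, BCAA, glucose, glutamine and methionine. Gfm2, a mitochondrial ribosome recycling factor, led without methionine (0.63 ± 0.12, adjusted p = 3.05e-05), and Eef1e1, a component of the multi-tRNA synthetase complex, was lowest (-1.39 ± 0.14, adjusted p = 2.16e-09). Both directions together came to 4, 3, 6, 5 and 6 of 9 genes, against 16.5%, 26.9%, 25.8%, 35.2% and 49.1% of all genes. With each of the 3 drugs 0 passed.

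Enzymes that modify elongation factors were measured for 14 of 15 genes. Without methionine TE fell for 9 and rose for 3, against 49.1% of all genes called, with Dph2, which acts in making the diphthamide of eEF2, highest (0.86 ± 0.12, adjusted p = 7.40e-07) and Dnajc24, a co-chaperone of the same pathway, lowest (-1.19 ± 0.17, adjusted p = 1.02e-06). Dph2 also rose in total RNA there (0.93 ± 0.08, adjusted p = 1.75e-08). It rose in TE without BCAA, glucose and glutamine as well, the only one of the 14 to do so, between 0.42 and 0.50. TE of the list fell for 2 without arginine (16.5% of all genes called in either direction), 4 without BCAA (26.9%), 3 without glucose (25.8%) and 6 without glutamine (35.2%), and 0 passed with any of the 3 drugs.

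Regulators of TOP mRNAs and of eEF2 kinase were measured for 17 of 19 genes. Eif4ebp1, which encodes 4E-BP1, was the highest of them in total RNA in all 5 deprivations, up to a log2 change of 0.89 ± 0.08 without BCAA (adjusted p = 1.44e-08). Prkaa1, a catalytic subunit of the energy-sensing kinase AMPK, was highest in polysome RNA without methionine (0.91 ± 0.09, adjusted p = 4.71e-08). TE rose for 1, 1, 2, 2 and 4 of the 17 and fell for 1, 7, 2, 7 and 7 on removal of arginine, BCAA, glucose, glutamine and methionine, against 16.5%, 26.9%, 25.8%, 35.2% and 49.1% of all genes called in either direction. The counts of 2 of 17 without arginine and 4 of 17 without glucose were near or below that share, and 0 passed with any drug. The lowest without methionine was Cnbp, which encodes a nucleic acid-binding protein reported to bind TOP mRNAs (-1.10 ± 0.08, adjusted p = 6.90e-12).

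Of paralogs and partners of the group, 10 of 11 were measured. TE fell for 4 and rose for 2 without methionine, against 49.1% of all genes called in either direction. Vars1, the valyl-tRNA synthetase that binds eEF1, was highest there (0.71 ± 0.14, adjusted p = 1.05e-04). Npm3, a relative of Npm1, was lowest (-0.89 ± 0.12, adjusted p = 3.17e-07). TE fell for 2, 2, 1 and 3 and rose for 1, 1, 0 and 1 without arginine, BCAA, glucose and glutamine. Of all genes, 16.5%, 26.9%, 25.8% and 35.2% were called in these, and 0 of the list passed with any drug.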

How the data were processed

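The deposited table holds counts of reads per gene, not normalized, for 60 libraries and 14695 genes. The tools named per the submitters' processing notes are FastQC, MultiQC, Trimmomatic, STAR, HTSeq and edgeR, with the build GRCm39 and no versions, roles or settings. Of 78 labelled libraries, 18 monosome libraries were not analysed here.

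Each experiment and fraction was fitted on its own with edgeR 4.0.16 in R 4.3.3 (TMM scaling, filterByExpr with a minimum count of 10, quasi-likelihood test). TE was the interaction in a fit over both kinds of library. All adjusted p-values are edgeR's, Benjamini-Hochberg over all genes of the comparison, with calls at 0.05, except where DESeq2 1.42.0 is named. Values after ± are standard errors of log2 changes, over 3 lysates per group. The labels do not say whether replicates came from separate animals or cultures, so p-values measure the spread between these lysates.

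A total and a polysome library of 1 lysate are paired by the gradient protocol (mean correlation of deviations 0.0552 in the nutrient and 0.107 in the drug experiment). Alternatives were DESeq2, RLE size factors, no low-count filter, fits of a condition with its control alone, a replicate block, omission of each library or lysate, omission of entries derived from ribosomal RNA and, chosen after seeing the data, omission of both lysates with an R in the library name. Scripts were tested on simulated data. All 10 genes were named, along with the genes at the top and bottom of each other list and the 5 most like Eef1a1, Eef2 and Eef2k. The members and lists were chosen with earlier results of these data known.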

Additional observations from a re-analysis of the deposited data

How the results depend on the processing

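For single genes tested against their control or between fractions, omission of 1 library or lysate left 3556 values on their side of the threshold. It ended 97 calls and added 18. A direction counted as turned only where the value was called in either fit or its main estimate exceeded its standard error. By that rule 1 turned, that of Pabpc1 in polysome RNA without arginine, which ran from -0.31 to 0.05732 and was not called. Smaller estimates changed sign too, such as that of Eef1a1 in total RNA with 4EGi1 (-0.035 to 0.040) and of Eef2 in TE without glucose (-0.027 to 0.081). RLE size factors ended 4 calls and added 5, DESeq2 ended 2 and added 15, fits of a condition with its control alone ended 12 and added 7, no low-count filter ended 3, and omission of ribosomal RNA entries added 2.

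The 5 TE calls with drugs became 11 with DESeq2, 3 in fits with DMSO alone, 8 with the lysate as a replicate block, 3 without both lysates with an R in the library name, and 2 to 7 on omission of 1 lysate. The 8 polysome calls with drugs became 5 in fits with DMSO alone, 5 without both lysates with an R, 10 with DESeq2, 10 with the replicate block, 7 with RLE size factors, 7 with no low-count filter, and 5 to 8 on omission of 1 library. The 2 calls between drugs became 4 with DESeq2, 1 without both lysates with an R, and 1 to 2 on omission of 1 lysate. On omission of 1 library or lysate, total RNA calls were 7 to 13 in deprivations and 4 to 6 with drugs, polysome calls in deprivations 30 to 36, TE calls in deprivations 25 to 29, calls between deprivations 39 to 47, and polysome over total calls 7 to 8 in Control and 6 to 7 in DMSO. Under the other alternatives these counts were 11 to 13, 4 to 6, 32 to 34, 28 to 30, 41 to 53, 8 to 9 and 7, in that order, with 30 TE calls under both DESeq2 and the lysate block. The cause of these shifts was not tested.

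Libraries with the same replicate number were weakly correlated within a fraction (mean correlations of deviations 0.0353 to 0.0776). Among the 9 genes the replicate block ended 1 call and added 3. Over all genes it gave more calls in every deprivation and fraction, as 5683 in place of 5034 in polysome RNA without arginine. With Torin it gave 4097 in place of 3343 in total RNA. It gave fewer with 4EGi1 (3151 in place of 3308 in total RNA, 3433 in place of 3497 in polysome RNA). In polysome RNA with halofuginone it gave 5 in place of 6. By the rule given above it turned the direction of Eef2k in total RNA with halofuginone (0.0007261, not called). The lysate block on TE added 5 calls against Control or DMSO, given beside their results, and ended none of those. Between deprivations it gave 53 calls in place of 46.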
